A study of Rattus norvegicus with 16 samples.

Results

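Ca2+ entering the cytosol from outside the cell or from the endoplasmic reticulum is read by calmodulin, by the kinases and the phosphatase that calmodulin switches on, and by protein kinase C, and it is removed by pumps and exchangers. The genes described here encode these parts of intracellular Ca2+ signaling. They were chosen by symbol, with earlier results of these data known, and took in calmodulin (Calm), the Ca2+/calmodulin-dependent kinases and their inhibitors (Camk1, Camk2, Camk4, Camkk), calcineurin (Ppp3c, Ppp3r), phospholipase C of the beta, gamma and delta types (Plcb, Plcg, Plcd), IP3 receptors (Itpr), ryanodine receptors (Ryr), the STIM sensors and Orai channels of store-operated entry, the Ca2+ pumps of the reticulum (Atp2a), the plasma membrane (Atp2b) and the Golgi (Atp2c), the Na+/Ca2+ exchangers (Slc8a) and protein kinase C (Prkc). The symbols matched 61 of the 21021 genes listed, and they form 15 families of 2 to 9 members each.

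These genes were measured by RNA sequencing of dorsal root ganglia (DRGs), which hold the cell bodies of sensory neurons among glial, vascular and immune cells. Adult female Sprague-Dawley rats received Walker 256 mammary gland carcinoma cells in the left tibia (tumor cell implantation, TCI), and L3-L5 DRGs of that side, pooled for each rat into 1 sample, were taken on day 1, 7 or 14 (4 samples each). The 4 sham samples are all labelled day 14, so that on days 1 and 7 the effect of TCI cannot be told apart from the time since surgery. The labels give PBS as the sham injection, whereas the methods of the study give boiled tumor cells. Sample 2 of day 1 and sample 3 of day 7, which the published work also set aside, were left out of the fit and are shown apart. This left 14 samples (sham 4, day 1 3, day 7 3, day 14 4). The study gave low correlation between samples as its reason. In log2(FPKM + 1) of the deposited values, the median correlation with the other samples was 0.983 for sample 2 of day 1. It was 0.926 for sample 3 of day 7 and 0.951 to 0.984 for the 14 samples of the fit.

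In a sensory neuron, some G protein-coupled receptors act through beta-type phospholipase C, which splits a membrane lipid into IP3 and diacylglycerol. IP3 opens Ca2+ channels of the reticulum, and diacylglycerol activates protein kinase C, which is known to sensitize nociceptors. When the store empties, STIM proteins in its membrane open Orai channels in the plasma membrane, and SERCA pumps refill the store.

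The tables hold FPKM, the fragments mapped to a gene per kilobase of its transcript and relative to all mapped fragments, which corrects for transcript length, so that levels may also be compared between genes. Fragment numbers are not given with the values, so that counting error is unknown. Relative depth, estimated from the smallest steps between low values of 152 genes, lay between 0.936 and 1.08 of the median sample and understates differences. All 20 neuron markers were at 1 FPKM or more in at least 3 samples, and their summed FPKM was 20277 to 21290 in sham, 19301 to 20667 at day 1, 17262 to 18214 at day 7 and 16899 to 20333 at day 14. The 15 macrophage markers summed to 78.0 to 144.3 FPKM in sham, 102.4 to 122.3 at day 1, 1020 to 1367 at day 7 and 579.0 to 1980 at day 14, and the 14 T cell markers found to 6.34 to 9.67, 6.86 to 9.19, 46.9 to 110.8 and 39.6 to 114.2 in the same order. The 8 fibroblast markers summed to 413.1 to 591.8 FPKM in sham, 623.4 to 809.2 at day 1, 952.1 to 1206 at day 7 and 330.0 to 962.9 at day 14, and 3 of the 8 were called higher on day 7 and 1 on day 14. The 10 Schwann cell markers summed to 9370 to 12248, 13673 to 14893, 7763 to 9493 and 7914 to 11854 FPKM in the same order, with 0 called on day 1 and 1 called lower on each of days 7 and 14. Day 7 sums were also above sham for endothelial markers (78.15 to 102.8 against 72.6 to 75.95 FPKM) and for smooth muscle and pericyte markers (85.4 to 104.3 against 54.5 to 65.8). The part of these cell types in the differences of the members was not tested. Changes in bulk ganglia cannot separate fewer cells of a type from less RNA per cell.

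The families spanned the whole range of expression. Averaged over the 14 samples, 4 members were at 100 FPKM or more (among them Calm2, Calm3 and Camk2g), 31 at 10 to under 100, 21 at 1 to under 10 and 5 under 1. In the sham samples several families had 1 leading form, whereas others, such as calcineurin and the Orai channels, had none. Itpr3 made up 92.1 to 93.3% of the summed FPKM of the IP3 receptors, Camk2g 56.3 to 59.6% of the CaM kinase II subunits, Ryr2 75.3 to 79.5% of the ryanodine receptors and Atp2c1 at least 99.9% of the SPCA pumps. By contrast, Stim1 (49.2 to 53.9%) and Stim2 (46.1 to 50.8%) were at nearly equal levels, and 5 PKC forms (Prkca, Prkcb, Prkcd, Prkce and Prkcz) each took 14.2 to 22.8% of the PKC sum.

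**Figure D1:**
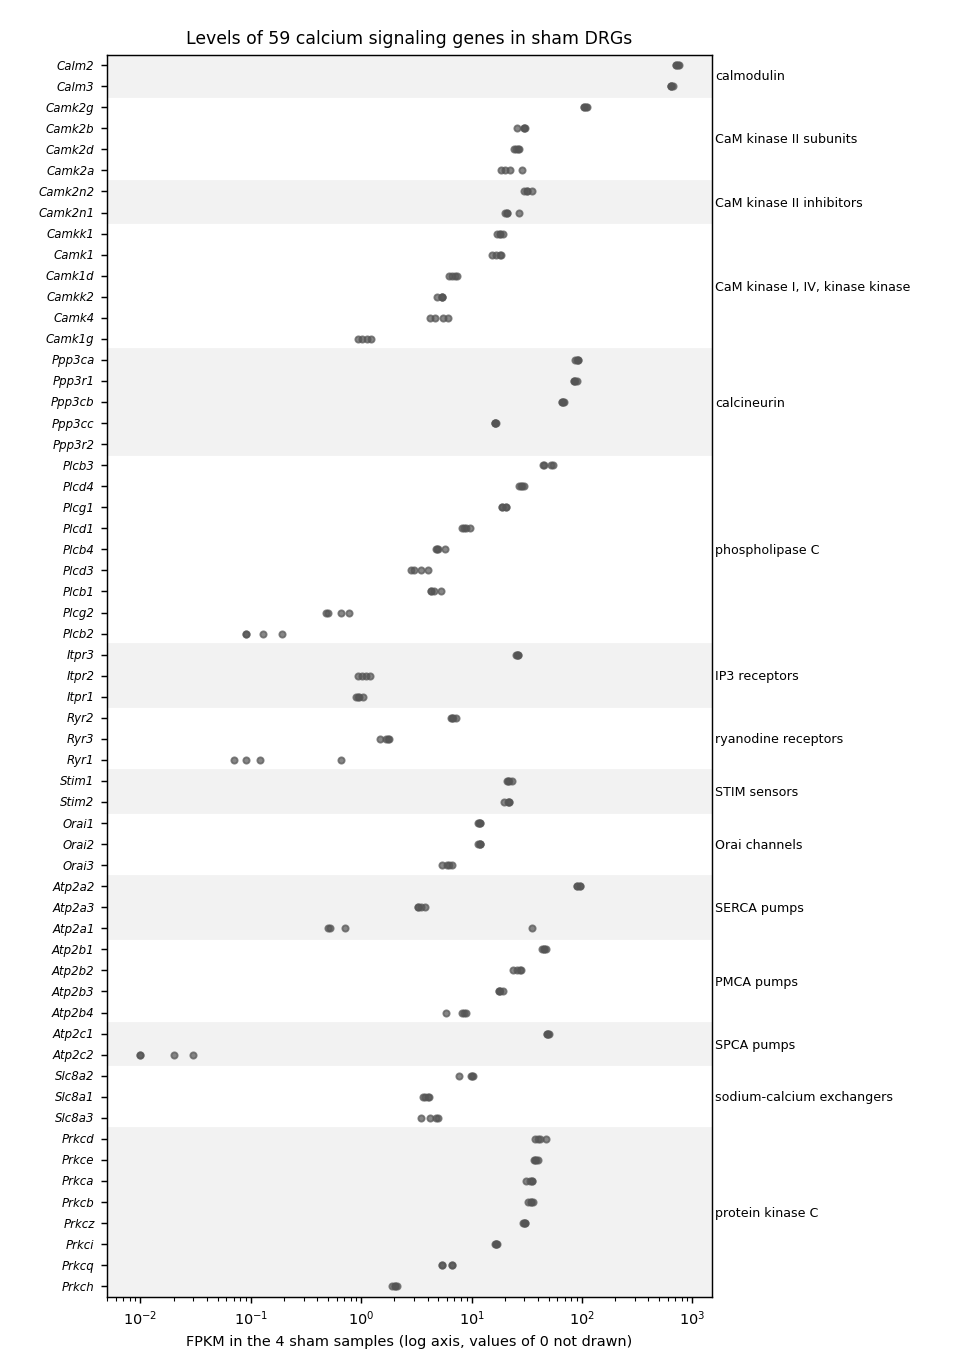
FPKM (log axis) of 59 of the 61 members in the 4 sham samples, 1 point per sample, with genes grouped by family (shading) and ordered by mean level. Calm2 and Calm3 lie highest, at 635.0 to 763.6 FPKM, and Ppp3r2, at 0 in all samples, has no point.

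The question was at which stage after TCI these genes differed from sham. A member was called when its adjusted p was at most 0.05 (limma, two-sided, Benjamini-Hochberg over the 14023 genes tested), whatever the fold change. Of the 61 members, 56 reached 1 FPKM in 3 or more of the 14 samples and were tested. Ppp3r2 (0 in all samples), Plcb2 (0.09 to 0.59 FPKM), Atp2c2 (0 to 0.08 FPKM) and the muscle forms Atp2a1 and Ryr1 were not.

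On day 1 after TCI no member was called (0 of 56), nor was any other gene (0% of those tested). By its own test and cut-offs, the study reported genes that rose and fell on that day. It found the calcium signaling pathway enriched among them. The smallest adjusted p among the members was 0.939, and 2 members, both lower and Prkce among them, had an unadjusted p under 0.05, against 734 (5.23%) of all genes. Of the members, 9 had day 1 samples that did not overlap with sham (3 higher and 6 lower, 16.1%), against 11.9% of all genes tested. The differences lay between -0.28 and 0.24 on the log2(FPKM + 1) scale, with a median of -0.033 against 0.00090 over all genes. Of the 56, 44 were below 0 and 12 above it, whereas 50.3% of all genes were above 0.

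On day 7, 15 of 56 members were called (26.8%), against 17.9% of all genes tested. Plcd3, Prkch, Atp2a3, Itpr2, Orai3, Plcd1 and Plcg1 rose (7 members, 12.5%, against 14.5% of all genes), and Slc8a3, Camk1d, Atp2b2, Ryr2, Atp2a2, Ppp3cb, Prkcb and Ppp3r1 fell (8 members, 14.3%, against 3.45% of all genes). The share that rose was thus close to that of all genes and the share that fell was above it, and the list as a whole was not tested. Day 7 and sham samples did not overlap for 25 members (44.6%, 8 higher and 17 lower), against 33.9% of all genes. None of the members reached the stricter cut-offs used in the study (fold changes of 1 or more in size on the log2 scale, adjusted p up to 0.001), which 1.83% of all genes did. Here these cut-offs were applied to limma differences in log2(FPKM + 1), which are smaller than the ratio of means for low genes. The study applied them to its own test of differential expression, in which more genes passed on days 7 and 14. The median difference was -0.015 for the members and 0.042 for all genes.

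On day 14, 7 of 56 members were called (12.5%), against 15.1% of all genes. Prkch, Plcd3, Plcd1 and Camk1g rose (4 members, 7.14%, against 11.9%), and Atp2a2, Atp2c1 and Ppp3cb fell (3 members, 5.36%, against 3.21%), so that the share called was near that of all genes. Groups did not overlap for 11 members (19.6%, 5 higher and 6 lower), against 19.2% of all genes, and 0 members reached the cut-offs of the study, against 0.642%. Days 7 and 14 were compared with the same sham samples. They shared 5 called members (Plcd1, Plcd3, Prkch, Atp2a2 and Ppp3cb), which is 5 of the 15 called on day 7 and 5 of the 7 called on day 14.

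A call on 1 day only is no difference between days. In the direct comparison of day 14 with day 7, 0 of 56 members were called, against 0.0998% of all genes (limma; smallest adjusted p of a member 0.247). At an unadjusted p under 0.05 there were 9 members (5 higher and 4 lower on day 14, 16.1%), against 9.96% of all genes.

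The split between members that rose and fell depended on scaling. As a share of the 56 tested, the members that fell stayed above all genes under both scalings on both days. The share that rose stayed below all genes, and the list as a whole was not tested. Quantile normalization moved the median difference of all genes on day 7 from 0.042 to -0.070. It gave 1 of 56 members higher and 15 of 56 (26.8%) lower, against 9.56% and 16.5% of all genes. Median ratio scaling gave 5 of 56 higher and 14 of 56 lower, against 11.1% and 8.12% of all genes. On day 14, quantile normalization gave 3 of 56 members higher and 12 of 56 lower, against 7.85% and 11% of all genes. Median ratio scaling gave 3 of 56 (5.36%) higher and 7 of 56 (12.5%) lower, against 9.26% and 6.44%. Members called after a scaling but not without it were all lower. On day 7, Atp2b1, Atp2b3, Calm3 and Camk2b were gained under both scalings, Calm2, Plcb1 and Ryr3 after quantile normalization and Ppp3ca after median ratio scaling. On day 14, Atp2b1, Atp2b3, Ppp3r1 and Prkcb were gained under both, and Plcb1, Prkci, Ryr2, Ryr3 and Slc8a3 after quantile normalization. With all 16 samples, 12 members were called on day 7 (6 higher and 6 lower, 9 of them among the 15) and 5 on day 14. The day 7 count fell to 8 without sham sample 1 and to 9 without day 7 sample 1 or sample 2. No called member changed sign under any alternative.

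**Figure D2:**
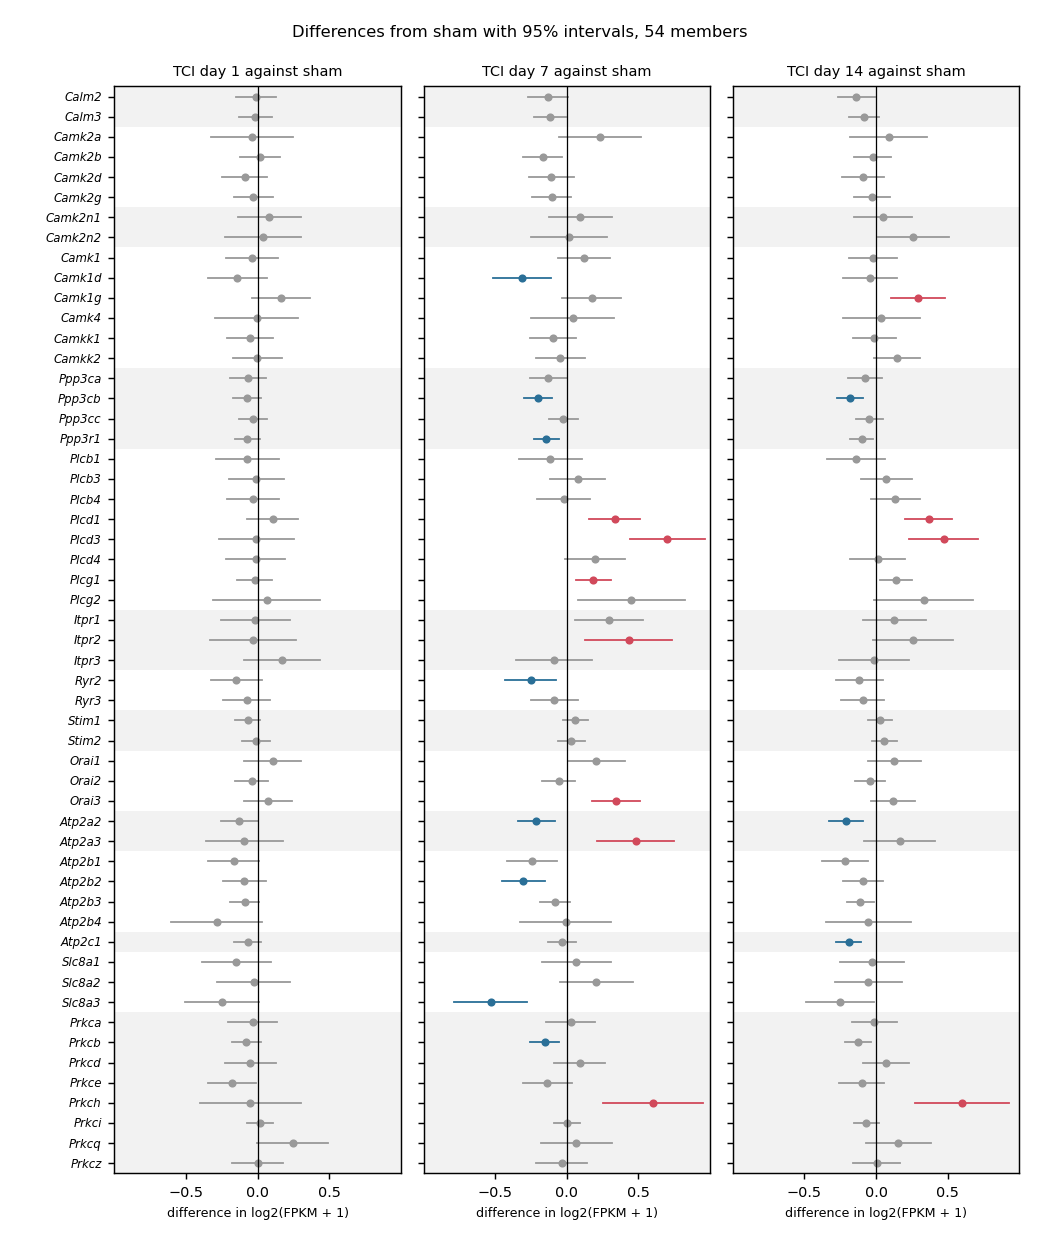
Difference from sham in log2(FPKM + 1) for 54 of the 56 members tested on days 1, 7 and 14 (points) with 95% intervals (lines), genes in family order with shading by family. Red marks members called higher and blue those called lower, 15 on day 7 and 7 on day 14, with none on day 1.

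The 5 members called on both days are shown first. Their promoters (250 bases before to 50 after the RefSeq transcription start, assembly GRCr8, 5′ to 3′ on the gene's strand) are given for the 4 that have an entry in the table used, with each GC box (GGGCGG or its reverse complement CCGCCC) in capitals, since the members that rose and those that fell can be compared there. Prkch had no entry.
Plcd1 (rose, chr8:127695890-127696189, minus strand): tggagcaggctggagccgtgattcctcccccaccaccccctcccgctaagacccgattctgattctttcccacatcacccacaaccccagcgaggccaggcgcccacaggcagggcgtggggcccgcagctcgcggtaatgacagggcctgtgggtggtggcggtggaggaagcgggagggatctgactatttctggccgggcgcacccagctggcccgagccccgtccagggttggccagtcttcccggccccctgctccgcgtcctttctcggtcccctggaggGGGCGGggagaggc
Plcd3 (rose, chr10:88548020-88548319, minus strand): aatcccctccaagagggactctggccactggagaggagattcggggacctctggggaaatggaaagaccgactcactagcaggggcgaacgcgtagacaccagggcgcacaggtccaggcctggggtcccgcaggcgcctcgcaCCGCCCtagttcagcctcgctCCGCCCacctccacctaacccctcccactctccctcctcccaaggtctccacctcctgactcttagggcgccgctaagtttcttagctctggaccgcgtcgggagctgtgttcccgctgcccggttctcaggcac
Atp2a2 (fell, chr12:39733269-39733568, plus strand): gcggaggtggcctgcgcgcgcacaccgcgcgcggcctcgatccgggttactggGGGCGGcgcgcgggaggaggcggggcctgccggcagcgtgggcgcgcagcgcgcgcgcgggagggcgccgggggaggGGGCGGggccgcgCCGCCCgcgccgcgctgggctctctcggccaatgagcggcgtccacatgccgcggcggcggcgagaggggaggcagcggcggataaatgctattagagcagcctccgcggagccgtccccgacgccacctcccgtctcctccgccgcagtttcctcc
Ppp3cb (fell, chr15:3809012-3809311, plus strand): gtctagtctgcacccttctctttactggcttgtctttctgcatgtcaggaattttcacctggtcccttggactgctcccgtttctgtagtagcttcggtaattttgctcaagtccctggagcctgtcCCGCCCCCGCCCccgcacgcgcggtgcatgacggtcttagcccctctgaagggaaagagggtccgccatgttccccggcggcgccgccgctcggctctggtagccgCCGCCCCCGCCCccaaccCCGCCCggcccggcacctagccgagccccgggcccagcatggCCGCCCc

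The GC box was in the promoters of both the members that rose and those that fell, with 1 in Plcd1, 2 in Plcd3, 3 in Atp2a2 and 6 in Ppp3cb. Of the 61 members, 47 had a promoter in the table, and 34 of these held a GC box (72.3%), against 61.5% of the promoters of the genes tested and 34.9% of all promoters. In the same windows, TGACG (the half-site of the cAMP response element, both strands) was in 9 (19.1%, against 31.3% and 22.0%), GGAAA (the core of NFAT sites, both strands) in 22 (46.8%, against 58.3% and 62.5%) and TATAAA in 3 (6.38%, against 6.94% and 14.3%). The median GC content was 70.0% for the members, 61% for the genes tested and 52.3% for all. A match describes the letters only.

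Calmodulin, the Ca2+ sensor that binds to most of the kinases below, is encoded by several genes for the same protein. Calm2 was at 734.96, 763.62, 708.23 and 713.11 FPKM in the sham samples, 709.11, 742.37 and 723.75 on day 1, 652.87, 644.41 and 699.10 on day 7 and 596.64, 633.97, 717.23 and 713.94 on day 14. Calm3 was at 645.32, 666.35, 634.96 and 644.90 FPKM in the sham samples, 636.34, 655.73 and 630.01 on day 1, 593.97, 598.96 and 598.89 on day 7 and 575.79, 591.62, 679.57 and 599.78 on day 14. For both, the day 7 samples were below sham, whereas days 1 and 14 overlapped with it. Neither was called on any day. On day 7 the differences were -0.13 ± 0.065 (SE; adjusted p = 0.183) for Calm2 and -0.12 ± 0.053 (SE; adjusted p = 0.152) for Calm3. On day 7 Calm3 was called after either scaling and Calm2 after quantile normalization, and both were called with array quality weights. Without day 14 sample 3, Calm3 was called on days 7 and 14.

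CaM kinase II is a holoenzyme of several subunits that keeps a trace of past Ca2+ signals by autophosphorylation. Camk2g was at 103.45, 110.46, 104.05 and 108.49 FPKM in the sham samples, 105.89, 103.36 and 103.81 on day 1, 98.51, 97.59 and 100.93 on day 7 and 108.05, 98.33, 118.36 and 94.63 on day 14. Camk2b was at 29.68, 25.92, 29.78 and 30.38 FPKM in the sham samples, 29.30, 29.81 and 28.55 on day 1, 25.86, 25.25 and 25.63 on day 7 and 30.98, 25.75, 29.38 and 27.72 on day 14. Day 7 samples were below sham for both genes without a call, with differences of -0.17 ± 0.064 (SE; adjusted p = 0.0865) for Camk2b and -0.11 ± 0.063 (SE; adjusted p = 0.278) for Camk2g. Camk2a ranged from 18.55 to 29.01 and Camk2d from 20.60 to 27.08 FPKM over the 14 samples, and neither was called on any day. The family thus had 0 of 4 members called, although Camk2b was called on day 7 after either scaling, with array quality weights and without sham sample 2.

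Camk2n1 and Camk2n2 encode small inhibitors of CaM kinase II. Camk2n2 was at 29.62, 31.52, 31.75 and 35.17 FPKM in the sham samples, 29.59, 37.69 and 31.63 on day 1, 31.03, 36.02 and 30.13 on day 7 and 34.77, 34.45, 50.25 and 36.29 on day 14. Camk2n1 was at 21.02, 20.86, 20.15 and 27.10 FPKM in the sham samples, 22.02, 23.92 and 24.51 on day 1, 24.89, 23.85 and 22.35 on day 7 and 22.14, 19.80, 25.59 and 24.70 on day 14. Both genes overlapped between groups on each day. Sample 3 of day 14 had the highest Camk2n2, and the day 14 difference was 0.26 ± 0.11 (SE; adjusted p = 0.146).

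CaM kinases I and IV are monomeric kinases that CaM kinase kinase switches on. Camk1d was at 7.06, 7.41, 6.23 and 6.66 FPKM in the sham samples, 6.13, 5.74 and 6.44 on day 1, 5.71, 5.90 and 4.42 on day 7 and 6.95, 7.19, 5.67 and 6.65 on day 14. All day 7 values were below the lowest sham value, and the day 7 difference was -0.31 ± 0.094 (SE; adjusted p = 0.0364), a ratio of means of 0.781. On day 14 it was -0.044 ± 0.087 (SE; adjusted p = 0.778), and the groups overlapped. For Camk1d, the call on day 7 was lost when the fit left out sham sample 1 (adjusted p = 0.0862), sham sample 2 (0.0975), sham sample 4 (0.0589), day 7 sample 1 (0.0517) or day 7 sample 4 (0.162), and also with only the 2 groups fitted (0.0527) and without the filter on low values (0.0549). Camk1g was at 1.23, 1.02, 0.93 and 1.14 FPKM in the sham samples, 1.25, 1.35 and 1.38 on day 1, 1.14, 1.43 and 1.47 on day 7 and 1.49, 1.3, 1.92 and 1.51 on day 14. Camk1g was at a low level, and all its day 14 values were above sham, with a difference of 0.29 ± 0.088 (SE; adjusted p = 0.0392) and a ratio of means of 1.44. Camk1g was no longer called on day 14 when any 1 of 11 samples was left out, that is each except day 7 sample 1, day 7 sample 4 and day 14 sample 2, with adjusted p from 0.0507 to 0.106, the highest without sham sample 3, and also with all 16 samples (0.105), with only the 2 groups fitted (0.106), after quantile normalization (0.383) and after median ratio scaling (0.0548).

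The 2 members of this family at the highest levels were not called. Camkk1 was at 18.27, 18.13, 16.99 and 19.42 FPKM in the sham samples, 18.15, 17.13 and 17.18 on day 1, 17.11, 16.73 and 17.0 on day 7 and 17.85, 15.82, 21.15 and 17.67 on day 14. Camk1 was at 15.19, 16.57, 18.55 and 18.04 FPKM in the sham samples, 16.64, 16.84 and 16.27 on day 1, 17.46, 18.81 and 19.52 on day 7 and 16.96, 14.20, 18.03 and 18.17 on day 14. Their groups overlapped on each of the 3 days. Over the 14 samples Camkk2 ranged from 4.56 to 6.46 and Camk4 from 4.18 to 6.25 FPKM, and neither was called.

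Calcineurin, the phosphatase that calmodulin activates and that moves NFAT factors to the nucleus, has catalytic (Ppp3ca, Ppp3cb, Ppp3cc) and regulatory (Ppp3r1, Ppp3r2) subunits. Ppp3cb was at 65.70, 68.36, 66.91 and 66.01 FPKM in the sham samples, 67.0, 61.50 and 61.74 on day 1, 59.30, 57.85 and 56.81 on day 7 and 60.57, 56.68, 56.21 and 61.78 on day 14. Day 7 and day 14 values were below all sham values. The difference was -0.20 ± 0.045 (SE; adjusted p = 0.00784) on day 7 and -0.18 ± 0.041 (SE; adjusted p = 0.0115) on day 14, with ratios of means of 0.869 and 0.881. The day 7 call of Ppp3cb was lost with all 16 samples (adjusted p = 0.0555). No left-out sample ended the call on either day.

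The regulatory subunit moved the same way on day 7. Ppp3r1 was at 85.53, 84.75, 89.35 and 85.90 FPKM in the sham samples, 84.81, 80.22 and 81.58 on day 1, 77.17, 77.78 and 79.26 on day 7 and 79.70, 77.09, 85.56 and 79.82 on day 14. The day 7 samples were below sham, and the difference was -0.14 ± 0.041 (SE; adjusted p = 0.0261). On day 14 sample 3 lay within the sham range, and the difference was -0.10 ± 0.038 (SE; adjusted p = 0.0907). Ppp3r1 was called on day 14 without that sample, after either scaling and with array quality weights. For Ppp3r1, the call on day 7 was lost when the fit left out sham sample 1 (adjusted p = 0.0513), sham sample 3 (0.0749), day 7 sample 1 (0.0895) or day 7 sample 2 (0.0783), and also with all 16 samples (0.0657). Ppp3ca was at 92.50, 89.58, 85.94 and 91.19 FPKM in the sham samples, 85.35, 88.56 and 83.36 on day 1, 80.41, 83.35 and 82.22 on day 7 and 88.25, 75.35, 92.93 and 84.14 on day 14. Ppp3ca was below sham in the 3 day 7 samples, but was not called (-0.13 ± 0.059 SE, adjusted p = 0.155). It was called on day 7 with only the 2 groups fitted, after median ratio scaling and with array quality weights. Ppp3cc, at 15.19 to 17.13 FPKM over the 14 samples, overlapped with sham on each day. Beside these values, 5 of 20 neuron markers were called lower on day 7 and 6 on day 14, and their part in the differences was not tested.

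Of the phospholipase C enzymes, the delta type, which Ca2+ itself activates, had both members that rose on both days. Plcd3 was at 3.47, 2.80, 2.99 and 4.0 FPKM in the sham samples, 3.56, 3.21 and 3.04 on day 1, 5.97, 5.93 and 6.04 on day 7 and 5.57, 4.19, 4.17 and 6.11 on day 14. The 3 day 7 values were close together and above all sham values, and the 4 of day 14 were also above sham. The difference was 0.70 ± 0.12 (SE; adjusted p = 0.00159) on day 7, the largest among the members, and 0.47 ± 0.11 (SE; adjusted p = 0.0134) on day 14, with ratios of means of 1.80 and 1.51. No left-out sample ended a call. Plcd3 was no longer called on day 14 with only the 2 groups fitted (adjusted p = 0.0619). The left-out day 7 sample was at 4.56 FPKM, below the other day 7 samples and above sham.

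Plcd1 rose by a similar amount on both days. Plcd1 was at 8.18, 8.96, 8.48 and 9.76 FPKM in the sham samples, 9.21, 9.74 and 9.78 on day 1, 10.83, 12.11 and 11.28 on day 7 and 12.05, 13.35, 11.60 and 9.96 on day 14. Days 7 and 14 were above sham in every sample, with differences of 0.33 ± 0.083 (SE; adjusted p = 0.0131) and 0.37 ± 0.076 (SE; adjusted p = 0.00728) and ratios of means of 1.29 and 1.33. The day 7 call of Plcd1 was lost when the fit left out day 7 sample 2 (adjusted p = 0.0629), and also after quantile normalization (0.0562). The day 14 call held under each alternative except the cut-offs of the study. Plcd4 was at 26.82, 27.79, 28.41 and 29.58 FPKM in the sham samples, 29.64, 29.14 and 25.02 on day 1, 27.70, 33.40 and 36.70 on day 7 and 29.64, 26.15, 32.10 and 26.12 on day 14. Plcd4 was not called on any day, and its day 7 samples overlapped with sham (0.20 ± 0.096 SE, adjusted p = 0.183). It was called on day 7 when the fit left out day 7 sample 1.

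Gamma-type enzymes are activated by tyrosine kinases. Plcg1 was at 18.71, 19.02, 20.51 and 20.61 FPKM in the sham samples, 19.66, 19.60 and 18.94 on day 1, 22.61, 23.37 and 21.65 on day 7 and 23.88, 21.60, 21.56 and 20.18 on day 14. All 3 day 7 samples were above sham, and the difference was small (0.19 ± 0.056 SE, adjusted p = 0.0372), with a ratio of means of 1.14. For Plcg1, the call on day 7 was lost when the fit left out sham sample 1 (adjusted p = 0.102), sham sample 2 (0.0953), day 1 sample 3 (0.0513), day 1 sample 4 (0.0504), day 7 sample 1 (0.0992) or day 7 sample 2 (0.135), and also with all 16 samples (0.246), after quantile normalization (0.114) and after median ratio scaling (0.142). Plcg2, a form known from B cells and myeloid cells, was at 0.48, 0.50, 0.66 and 0.78 FPKM in sham and at 1.38, 1.46 and 0.78 on day 7. Its difference of 0.45 ± 0.17 (SE; adjusted p = 0.0933) was not called, and the day 7 sample with the lowest Plcg2, sample 4, lay within the sham range. Plcg2 was called on day 7 without that sample and with array quality weights.

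Beta-type enzymes link G protein-coupled receptors to IP3. Plcb3 was at 52.77, 44.37, 45.40 and 55.06 FPKM in the sham samples, 54.49, 47.88 and 44.82 on day 1, 48.67, 52.11 and 55.24 on day 7 and 56.77, 47.91, 53.15 and 49.78 on day 14. Sham and TCI samples overlapped on each day. Plcb1 ranged from 3.14 to 5.26 and Plcb4 from 4.63 to 6.60 FPKM over the 14 samples, and no beta-type member was called.

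IP3 receptors release Ca2+ from the reticulum. Itpr3 was at 26.09, 25.86, 25.20 and 26.32 FPKM in the sham samples, 27.57, 29.02 and 31.11 on day 1, 24.62, 26.75 and 21.71 on day 7 and 27.05, 31.04, 18.97 and 26.81 on day 14. The leading form was above sham in the 3 day 1 samples and overlapped with it later, and it was not called (0.17 ± 0.12 SE, adjusted p = 0.974, on day 1 and -0.088 ± 0.12 SE, adjusted p = 0.676, on day 7). Itpr2 was at 0.93, 1.20, 1.11 and 1.01 FPKM in the sham samples, 1.15, 0.82 and 1.09 on day 1, 1.93, 2.14 and 1.33 on day 7 and 1.63, 1.82, 0.90 and 1.63 on day 14. Itpr2 was above sham in all 3 day 7 samples, with a difference of 0.43 ± 0.14 (SE; adjusted p = 0.0491) and a ratio of means of 1.69. On day 14 sample 3 was below sham and the other samples above it (0.26 ± 0.13 SE, adjusted p = 0.199). Itpr2 was called on day 14 without that sample and with array quality weights. Itpr2 was no longer called on day 7 when any 1 of 11 samples was left out, that is each except day 7 sample 4, day 14 sample 2 and day 14 sample 3, with adjusted p from 0.0558 to 0.180, the highest without day 7 sample 2, and also after quantile normalization (0.215), after median ratio scaling (0.0633), without the filter on low values (0.0597) and with a pseudocount of 0.1 (0.0563). Itpr1 was at 0.94, 1.03, 0.95 and 0.89 FPKM in sham and at 1.41, 1.58 and 1.22 on day 7, and was not called (0.30 ± 0.11 SE, adjusted p = 0.0818). It was called on day 7 with all 16 samples, with only the 2 groups fitted, with array quality weights and without day 14 sample 3.

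Ryanodine receptors release Ca2+ in response to Ca2+. Ryr2 was at 6.84, 7.24, 6.62 and 6.48 FPKM in the sham samples, 6.36, 6.01 and 5.73 on day 1, 5.88, 6.16 and 4.68 on day 7 and 6.70, 6.49, 5.62 and 6.0 on day 14. The day 1 and day 7 samples of this cardiac and neuronal form were below sham, with a difference of -0.25 ± 0.082 (SE; adjusted p = 0.0496) on day 7. On day 14 the groups overlapped (-0.12 ± 0.076 SE, adjusted p = 0.335). The day 7 call of Ryr2 was lost when any 1 of 12 samples was left out, that is each except day 7 sample 2 and day 14 sample 3, with adjusted p from 0.0505 to 0.211, the highest without day 7 sample 4, and also with only the 2 groups fitted (0.0753), without the filter on low values (0.0724), with genes at a mean of at least 5 FPKM only (0.0590) and with sample 2 of day 1 added (0.0586). Ryr3 was at 1.75, 1.78, 1.66 and 1.47 FPKM in the sham samples, 1.46, 1.51 and 1.61 on day 1, 1.59, 1.44 and 1.49 on day 7 and 1.63, 1.38, 1.36 and 1.64 on day 14. Ryr3 overlapped with sham on each day and was not called.

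In store-operated entry, STIM proteins sense the level of the store. Stim1 was at 21.27, 21.13, 21.86 and 23.02 FPKM in the sham samples, 20.78, 20.64 and 20.78 on day 1, 22.99, 22.86 and 22.48 on day 7 and 22.53, 21.93, 23.17 and 21.35 on day 14. Stim2 was at 21.73, 21.81, 21.43 and 19.69 FPKM in the sham samples, 21.20, 21.46 and 20.28 on day 1, 21.75, 21.02 and 22.15 on day 7 and 22.19, 21.69, 22.62 and 21.68 on day 14. Neither sensor was called on any day, and the 95% intervals of the day 7 difference ran from -0.029 to 0.15 for Stim1 and from -0.064 to 0.13 for Stim2.

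Orai proteins form the channel pore. Orai3 was at 5.39, 5.95, 6.21 and 6.59 FPKM in the sham samples, 6.02, 6.78 and 6.35 on day 1, 7.84, 7.29 and 8.64 on day 7 and 6.72, 6.61, 5.98 and 7.25 on day 14. The day 7 samples were above sham, with a difference of 0.34 ± 0.077 (SE; adjusted p = 0.00811) and a ratio of means of 1.31, whereas day 14 overlapped with sham (0.12 ± 0.072 SE, adjusted p = 0.289). For Orai3, the call on day 7 was lost after quantile normalization (adjusted p = 0.0506). No left-out sample ended it. Orai1 was at 11.86, 11.72, 11.35 and 11.83 FPKM in the sham samples, 12.79, 12.60 and 12.57 on day 1, 11.76, 13.45 and 15.98 on day 7 and 11.25, 12.37, 14.97 and 13.05 on day 14. Orai2 was at 11.54, 12.04, 11.87 and 12 FPKM in the sham samples, 12.02, 11.70 and 10.81 on day 1, 11.43, 11.02 and 11.68 on day 7 and 11.82, 12.32, 11.15 and 10.73 on day 14. Neither Orai1 nor Orai2 was called on any day, although Orai1 was called on day 7 when the fit left out day 7 sample 1.

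SERCA pumps return Ca2+ to the reticulum, and the 2 forms tested moved in opposite directions on day 7. Atp2a2 was at 89.50, 95.73, 91.13 and 95.40 FPKM in the sham samples, 85.85, 82.06 and 86.99 on day 1, 82.10, 84.66 and 73.61 on day 7 and 86.01, 83.38, 73.38 and 79.04 on day 14. Values of Atp2a2, the leading form, were below sham in every sample of the 3 days, with differences of -0.13 ± 0.060 (SE; adjusted p = 0.939) on day 1, -0.21 ± 0.060 (SE; adjusted p = 0.0255) on day 7 and -0.21 ± 0.055 (SE; adjusted p = 0.0241) on day 14 and ratios of means of 0.914, 0.862 and 0.866. Atp2a2 was no longer called on day 7 when the fit left out sham sample 2 (adjusted p = 0.0679), sham sample 4 (0.0612), day 7 sample 1 (0.0502) or day 7 sample 4 (0.113). The day 14 call of Atp2a2 was lost when the fit left out sham sample 2 (adjusted p = 0.0704) or sham sample 4 (0.0623), and also with only the 2 groups fitted (0.0545).

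Atp2a3 was at 3.27, 3.26, 3.45 and 3.81 FPKM in the sham samples, 3.48, 3.10 and 2.94 on day 1, 4.85, 6.72 and 4.27 on day 7 and 4.94, 3.86, 3.53 and 3.72 on day 14. Atp2a3 encodes the form known from blood cells and endothelium. Its day 7 samples were above sham, and the difference was 0.48 ± 0.12 (SE; adjusted p = 0.0164), a ratio of means of 1.53. On day 14 the groups overlapped (0.17 ± 0.11 SE, adjusted p = 0.359). For Atp2a3, the call on day 7 was lost when the fit left out day 7 sample 2 (adjusted p = 0.0771), and also with all 16 samples (0.174) and after quantile normalization (0.0610). The left-out day 7 sample, at 2.84 FPKM, was below sham. On day 7, all 15 macrophage markers and all 12 T cell markers tested were called higher, as were 2 of 10 endothelial markers, and their part in the difference was not tested.

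PMCA pumps move Ca2+ out of the cell. Atp2b2 was at 25.55, 27.26, 23.67 and 28.05 FPKM in the sham samples, 22.61, 25.90 and 24.79 on day 1, 21.66, 22.31 and 18.98 on day 7 and 24.76, 25.51, 23.33 and 24.38 on day 14. Day 7 samples were below sham, with a difference of -0.30 ± 0.070 (SE; adjusted p = 0.00886) and a ratio of means of 0.803. On day 14 the groups overlapped (-0.088 ± 0.065 SE, adjusted p = 0.395). The day 7 call held under each alternative except the cut-offs of the study. Atp2b1 was at 47.11, 44.99, 45.06 and 43.28 FPKM in the sham samples, 44.08, 38.53 and 37.78 on day 1, 38.90, 42.06 and 33.51 on day 7 and 41.04, 39.69, 34.22 and 39.87 on day 14. Day 7 and day 14 samples of Atp2b1 were below sham without a call (-0.24 ± 0.081 SE, adjusted p = 0.0571, and -0.22 ± 0.075 SE, adjusted p = 0.0683), and it was called on both days after either scaling. It was also called on day 7 with all 16 samples, with only the 2 groups fitted and with array quality weights. Leaving out day 1 sample 1, day 7 sample 2 or day 14 sample 3 gave the day 7 call too. Leaving out day 7 sample 4 gave a call on day 14. Atp2b3 was at 17.65 to 19.36 FPKM in sham and at 15.67 to 17.60 in the TCI samples of the fit, all below sham. It was not called (-0.084 ± 0.048 SE, adjusted p = 0.258, on day 7 and -0.11 ± 0.044 SE, adjusted p = 0.116, on day 14), but like Atp2b1 was called on both days after either scaling. Atp2b4 ranged from 5.67 to 8.93 FPKM over the 14 samples and was not called.

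The SPCA pump of the Golgi was called on day 14. Atp2c1 was at 48.29, 49.08, 48.74 and 50.25 FPKM in the sham samples, 48.75, 46.06 and 45.48 on day 1, 47.94, 48.27 and 47.55 on day 7 and 44.24, 39.50, 43.27 and 44.59 on day 14. Of the 14 samples, those of day 14 were the 4 lowest, with a difference from sham of -0.19 ± 0.041 (SE; adjusted p = 0.00842) and a ratio of means of 0.874, whereas day 7 was at -0.034 ± 0.045 (SE; adjusted p = 0.655). Atp2c1 was no longer called on day 14 with all 16 samples (adjusted p = 0.164). The direct comparison of days 14 and 7 gave -0.16 ± 0.045 (SE; adjusted p = 0.247). Atp2c2 was at 0.03, 0.01, 0.01 and 0.02 FPKM in the sham samples, 0.04, 0.0 and 0.01 on day 1, 0.03, 0.08 and 0.04 on day 7 and 0.01, 0.05, 0.07 and 0.07 on day 14. Atp2c2, near 0 throughout, was not tested.

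Na+/Ca2+ exchangers use the Na+ gradient to extrude Ca2+. Slc8a3 was at 4.94, 4.72, 4.21 and 3.46 FPKM in the sham samples, 2.85, 4.04 and 3.58 on day 1, 2.96, 2.63 and 2.44 on day 7 and 2.92, 3.63, 3.39 and 3.93 on day 14. All day 7 samples were below sham, and the difference of -0.53 ± 0.12 (SE; adjusted p = 0.00765), a ratio of means of 0.618, was the largest fall among the members. The differences on days 1 and 14, -0.25 ± 0.12 (SE; adjusted p = 0.939) and -0.25 ± 0.11 (SE; adjusted p = 0.141), were smaller, with samples that overlapped with sham. The day 7 call of Slc8a3 was lost with all 16 samples (adjusted p = 0.239). In that fit the left-out day 7 sample, at 5.87 FPKM, was above all other samples. Slc8a2 was at 10.07, 7.72, 9.88 and 10.32 FPKM in the sham samples, 9.77, 9.34 and 8.69 on day 1, 9.22, 12.15 and 11.99 on day 7 and 10.01, 7.68, 10.22 and 8.57 on day 14. Slc8a1 was at 3.63, 4.06, 3.75 and 4.08 FPKM in the sham samples, 3.80, 3.08 and 3.34 on day 1, 4.19, 4.78 and 3.44 on day 7 and 4.41, 4.35, 3.28 and 3.24 on day 14. Both forms overlapped with sham on each day and were not called.

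Protein kinase C forms differ in what activates them, the conventional ones (among them Prkca and Prkcb) needing Ca2+ and diacylglycerol, the others (Prkcd, Prkce, Prkch, Prkcq) diacylglycerol alone, and the atypical ones (Prkci, Prkcz) neither. Prkch was at 1.92, 2.01, 2.04 and 2.12 FPKM in the sham samples, 1.94, 1.98 and 1.84 on day 1, 3.57, 4.23 and 3.04 on day 7 and 3.59, 5.70, 2.80 and 2.76 on day 14. Days 7 and 14 were above sham in every sample. The difference was 0.60 ± 0.16 (SE; adjusted p = 0.0216) on day 7 and 0.60 ± 0.15 (SE; adjusted p = 0.0182) on day 14, with ratios of means of 1.79 and 1.84. For Prkch, the call on day 7 was lost when the fit left out sham sample 1 (adjusted p = 0.0529), day 7 sample 1 (0.0626) or day 7 sample 2 (0.0946), and also after quantile normalization (0.0705). Prkch was no longer called on day 14 when the fit left out sham sample 1 (adjusted p = 0.0503), and also with only the 2 groups fitted (0.0650). Prkch encodes the eta form, known from T cells and epithelia. Sample 2 of day 14, with the highest Prkch (5.70 FPKM), also had the highest summed FPKM of T cell (114.2) and macrophage (1980) markers among the 14 samples, and their part in the difference was not tested.

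Prkcb was the PKC gene that fell. Prkcb was at 35.97, 34.63, 32.71 and 34.41 FPKM in the sham samples, 32.96, 32.48 and 32.13 on day 1, 30.72, 29.98 and 31.75 on day 7 and 33.13, 32.53, 30.03 and 30.16 on day 14. Day 7 values were below sham, by a small amount (-0.15 ± 0.046 SE, adjusted p = 0.0342, a ratio of means of 0.895). On day 14 the difference was -0.13 ± 0.043 (SE; adjusted p = 0.0640), and sample 1 overlapped with sham. Prkcb was called on day 14 without that sample and after either scaling. The day 7 call of Prkcb was lost when the fit left out sham sample 1 (adjusted p = 0.0970), sham sample 2 (0.0752), sham sample 4 (0.0642), day 7 sample 1 (0.0936) or day 7 sample 2 (0.123), and also with all 16 samples (0.0660), without the trend in limma (0.0507) and with sample 2 of day 1 added (0.0520).

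The PKC forms at the highest levels were not called. Prkcd was at 41.61, 37.26, 40.32 and 47.45 FPKM in the sham samples, 41.69, 41.23 and 37.40 on day 1, 42.35, 45.92 and 44.42 on day 7 and 46.50, 42.85, 46.92 and 38.83 on day 14. Prkce was at 37.98, 36.81, 37.36 and 40.29 FPKM in the sham samples, 35.58, 33.09 and 31.95 on day 1, 35.92, 37.81 and 30.48 on day 7 and 38.81, 37.41, 31.95 and 34.01 on day 14. Prkcd overlapped with sham on each day, whereas Prkce, the form most studied in nociceptors, was below sham in the 3 day 1 samples (-0.18 ± 0.078 SE, adjusted p = 0.939) and overlapped on days 7 and 14. Prkca (29.35 to 38.14 FPKM), Prkcz (25.56 to 36.04), Prkci (15.02 to 17.22) and Prkcq (5.39 to 8.57) were not called on any day.

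**Figure D3:**
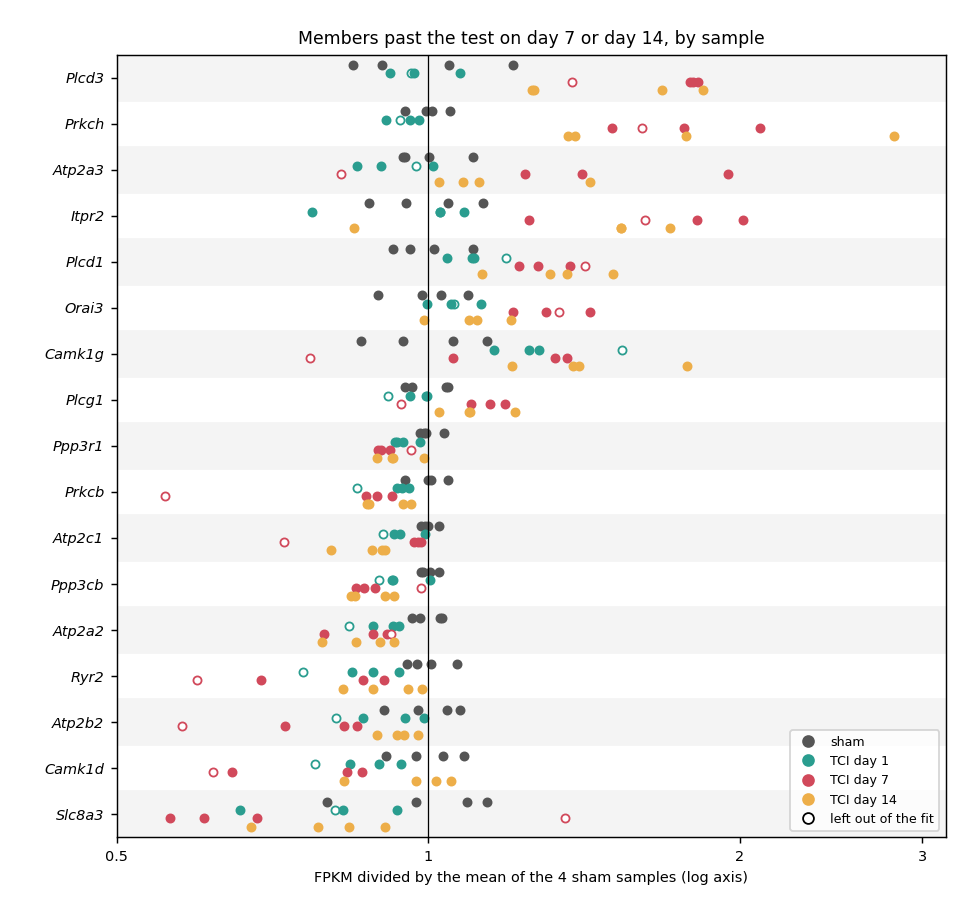
FPKM of the 17 members called on day 7 or 14, divided by the mean of the 4 sham samples (log axis), 1 point per sample in colors by group, with open points for the 2 samples left out of the fit. The filled day 7 points do not overlap with the sham points for the 15 genes called on day 7, whereas they adjoin the lower edge of sham for Atp2c1 and overlap with it for Camk1g, and the open day 7 point lies far from the filled ones for Slc8a3, Prkcb and Atp2c1.

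Sample 3 of day 7, which was left out, held skeletal muscle transcripts. Atp2a1, the SERCA pump of fast skeletal muscle, was at 2844.67 FPKM there, 80.7 times the next highest sample, and Ryr1, the ryanodine receptor of skeletal muscle, was at 70.34 FPKM, 107 times the next highest. These were the only 2 of the 61 members at 5 or more times the highest other sample. In both cases the next highest was sham sample 4 (35.23 and 0.66 FPKM), which was kept in the fit, and elsewhere Atp2a1 lay between 0.49 and 1.05 and Ryr1 between 0.07 and 0.14 FPKM. The creatine kinase gene Ckm was at 3628 FPKM in this sample, at 76.5 in sham sample 4 and at 1.09 to 2.80 in the others, and the myosin gene Myh4 at 1588, 5.95 and 0.17 to 0.46.

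Orai1 (34.11 FPKM, against at most 15.98 elsewhere), Prkcq (18.68, against at most 12.42), Stim1 (27.98, against at most 23.17) and Itpr1 (1.92, against at most 1.58) were also highest in this sample. So were Slc8a3 (5.87, against at most 4.94), Ppp3cc (19.25, against at most 17.13) and Camk2b (31.76, against at most 30.98). Of the 56 members tested, 7 (12.5%) were highest of the 16 samples there, against 18.1% of all genes tested. Lowest there were 32 of the 56, a larger share than the 31.8% of all genes tested. The median ratio to the mean of the other day 7 samples was 0.794 for the members and 0.897 for all genes tested. The members together made up 1.20% of the FPKM in this sample and 0.708 to 0.823% in the others. In this sample Atp2a1 and Ryr1 alone held 2915 of the 5708 FPKM of the members. The other left-out sample, sample 2 of day 1, had the second highest Prkcq (12.42 FPKM) and the highest Itpr3 (37.98 FPKM, against at most 31.11 elsewhere). With sample 2 of day 1 added to the fit, 0 members were called on day 1.

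**Figure D4:**
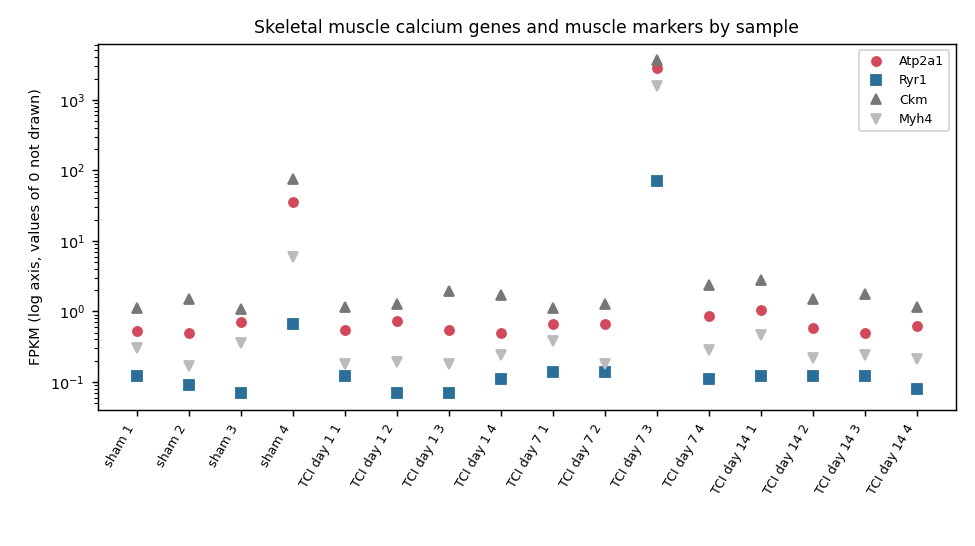
FPKM (log axis) of the muscle forms Atp2a1 and Ryr1 and of the muscle markers Ckm and Myh4 in all 16 samples. All 4 genes are highest in sample 3 of day 7 and next highest in sham sample 4.

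Other genes of the Ca2+ pathway were followed as 9 lists. On day 1, 0 were called in any list. Of the 87 genes tested in these lists, 14 rose (16.1%) and 2 fell (2.3%) on day 7, against 14.5% and 3.45% of all genes, and 9 rose (10.3%) and 3 fell (3.45%) on day 14, against 11.9% and 3.21%. These shares were near those of all genes, and no single list was tested. Of the calcium buffers and sensor proteins, 2 of 14 tested rose and 2 fell on both day 7 and day 14. Cib1, an EF-hand integrin-binding protein, rose from 13.5 in sham to 19.7 FPKM on day 7 (means, n = 4 and 3), with differences of 0.52 ± 0.057 (SE; adjusted p = 0.000112) on day 7 and 0.32 ± 0.053 (SE; adjusted p = 0.00209) on day 14. Ncs1, neuronal calcium sensor 1, fell from 33.4 in sham to 25.8 FPKM on day 7 (means, n = 4 and 3), with differences of -0.36 ± 0.057 (SE; adjusted p = 0.000946) and -0.22 ± 0.053 (SE; adjusted p = 0.0145) on the 2 days. Efhd2, an EF-hand protein, rose on day 7 (0.75 ± 0.16 SE, adjusted p = 0.00662), and S100a1 fell on day 14 (-0.30 ± 0.071 SE, adjusted p = 0.0146).

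Of the mitochondrial Ca2+ genes 1 of 11 rose on each day. This was Slc8b1, the mitochondrial Na+/Ca2+ exchanger, which rose from 6.93 in sham to 12.5 FPKM on day 7 (means, n = 4 and 3), with differences of 0.77 ± 0.11 (SE; adjusted p = 0.000388) on day 7 and 0.63 ± 0.097 (SE; adjusted p = 0.00155) on day 14. Of the calcineurin targets and modulators 2 of 8 rose on each day. The NFAT genes Nfatc4 (0.72 ± 0.12 SE, adjusted p = 0.00110) and Nfatc1 (0.64 ± 0.18 SE, adjusted p = 0.0306) rose on day 7, and Cabin1 (0.15 ± 0.044 SE, adjusted p = 0.0395) and Nfatc4 (0.35 ± 0.11 SE, adjusted p = 0.0443) on day 14. Among Ca2+-binding proteins and pump or channel regulators of the reticulum, 0 of 11 were called on day 7 and 1 of 11, Asph, fell on day 14 (-0.19 ± 0.051 SE, adjusted p = 0.0281).

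Of the other phospholipase C forms and lipid messenger enzymes, 2 of 16 rose on each day, Dgka (0.47 ± 0.11 SE, adjusted p = 0.00834) and Inpp5d (0.69 ± 0.17 SE, adjusted p = 0.0112), a diacylglycerol kinase and the phosphatase SHIP1 of blood cells, on day 7 and Inpp5d (0.53 ± 0.15 SE, adjusted p = 0.0346) and Dgkz (0.32 ± 0.094 SE, adjusted p = 0.0361) on day 14. Of the PKC partners and diacylglycerol effectors, 4 of 11 rose on day 7, led by protein kinase D2, Prkd2 (0.64 ± 0.10 SE, adjusted p = 0.00117), with Prkd3 (0.40 ± 0.11 SE, adjusted p = 0.0192) and Rasgrp1 (0.39 ± 0.11 SE, adjusted p = 0.0281), and 1 on day 14, again Prkd2 (0.43 ± 0.096 SE, adjusted p = 0.0101). Of the lysosomal and transient receptor channels 2 of 6 rose on day 7, Trpc6 (0.51 ± 0.11 SE, adjusted p = 0.00704) and Tpcn1 (0.34 ± 0.085 SE, adjusted p = 0.0136), and 1 on day 14, Trpc6 (0.34 ± 0.10 SE, adjusted p = 0.0422). Of the calmodulin-binding regulators 1 of 8 rose on day 7, Mylk (0.43 ± 0.12 SE, adjusted p = 0.0215), and 0 on day 14, and of the Na+/Ca2+-K+ exchangers 0 of 2 were called on either day.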

How the data were processed

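RNA from the L3-L5 DRGs of 16 rats in 4 groups was sequenced. By its methods, the study filtered BGISEQ-500 paired reads, aligned them with HISAT/Bowtie2 and quantified genes with RSEM. Per the labels the processing notes name CASAVA 1.4 and Bowtie2 and an Illumina protocol. The genome build and annotation are not given in the sources used here. The authors deposited 1 table of FPKM per sample with 2 decimals. FPKM scales each library to its mapped fragments, so that a transcript that takes a larger share lowers the others.

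The deposited FPKM were transformed to log2(FPKM + 1). Genes that reached 1 FPKM in 3 or more of the 14 samples were tested with limma 3.58.1 in R 4.3.3 (lmFit, then eBayes with a trend), all 4 groups in 1 fit, p-values adjusted by Benjamini-Hochberg over all genes tested. The pseudocount of 1 makes differences of low genes smaller than their ratio of means. The design written beforehand also provided for counts, and since the tables hold FPKM that branch was not used. Samples are separate rats, and p-values measure the spread between them. At most 2.69% of the values above 0 were identical between any 2 samples. The procedure was tested on simulated data. All 61 members matched RefSeq (GRCr8) by gene identifier and symbol. Of the 61, 2 enter the counts but are not reported here singly.

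The members and lists were chosen with earlier results of these data known. Values in every sample are given for called members and for the 2 members of each family with the highest mean FPKM, and of the other lists up to 3 called genes by smallest p. Genes outside this rule are given as ranges or with values chosen after they were seen. Alternatives were all 16 samples, only the 2 groups compared, no trend, quantile normalization, median ratio scaling, testing without the filter, a minimum mean of 5 FPKM, adding 0.1 in place of 1 before the log, a replicate block, the cut-offs of the study, array quality weights and each sample left out in turn. A fit of 15 samples, with sample 2 of day 1, was added after seeing the data. Python 3.11.15 with matplotlib 3.10.9 drew the figures.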

Additional observations from a re-analysis of the deposited data

Results flagged for a closer look

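Among 240 combinations of a member and a group of 4 samples, the 2 left-out samples included, 28 had a highest or lowest sample whose gap to the nearest other, divided by the range of the group, exceeded Dixon's 95% critical value. Chance flags about 1 in 20, or 12 of 240, and no explanation was tested.

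Sample 3 of TCI day 7 accounted for 14 of them. It stood above the other day 7 samples for Atp2a1 (2844.67 FPKM), Ryr1 (70.34), Camk2b (31.76), Stim1 (27.98), Ppp3cc (19.25), Prkcq (18.68) and Slc8a3 (5.87). It stood below them for Calm3 (432.23 FPKM), Atp2c1 (35.60), Prkcb (19.14), Prkci (12.76), Atp2b3 (12.01), Camkk1 (11.52) and Plcd3 (4.56).

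In sham, sample 4 stood above the others for Atp2a1 (35.23 FPKM), Camk2n1 (27.10) and Ryr1 (0.66). Sample 2 stood below for Camk2b (25.92 FPKM) and Slc8a2 (7.72) and above for Plcb4 (5.74). Sample 3 stood above for Ppp3cc (16.73 FPKM) and below for Camkk2 (4.82). On day 1, sample 2 stood above for Stim1 (21.80 FPKM) and Atp2a1 (0.74), and sample 4 below for Plcd4 (25.02). On day 14, sample 1 stood above for Ppp3cc (17.13 FPKM), sample 3 above for Camk2n2 (50.25) and sample 4 below for Ryr1 (0.08).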

How the results depend on the processing

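On day 7, where 15 members were called, the count was 9 among genes at a mean of at least 5 FPKM (which leaves 44 members), 0 with the cut-offs of the study, 23 with array quality weights over all 16 samples, and 8 to 19 over the fits that leave out 1 sample. On day 14, where 7 were called, it was 3 with only the 2 groups fitted, 15 after quantile normalization, 4 at a mean of at least 5 FPKM, 0 with the cut-offs of the study, and 5 to 9 with each sample left out. The causes were not tested, beyond the 12 fewer members tested at 5 FPKM. On day 1 and between days 14 and 7 the count was 0 under each alternative. Sample numbers did not pair the rats (18 same-number pairs, r from -0.0952 to 0.269 between deviations from the group means), and with the number as a replicate block 13 members were called on day 7 (12 of them among the 15, with Atp2b1 gained and Plcg1, Ppp3r1 and Itpr2 at adjusted p of 0.0582, 0.0538 and 0.0649), 7 on day 14 (6 of them among the 7, with Atp2b1 gained and Camk1g at 0.0626) and 0 in each of the other 2 comparisons. Depth is not in the tables, so that values below 1 FPKM carry an unknown counting error.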
